A study of Solanum lycopersicum with 6 samples.

Results

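MYB12 and 8 enzyme genes of the flavonoid pathway were followed in RNA sequencing of tomato (*Solanum lycopersicum*) fruit pericarp, the fleshy fruit wall with its skin, at 38 days post anthesis. The 9 genes were fixed by identifier and not by their values, and all 9 were found among the 23709 genes that the 6 libraries list. There were 2 groups with 3 libraries each: wild-type fruit, and fruit of the genotype labelled SlDof1 RNAi, in which a Dof transcription factor gene is to be silenced by double-stranded RNA. The labels give neither a cultivar nor a promoter for the RNAi construct. They also do not say whether libraries came from separate plants or from 1 transgenic line, and all RNAi titles carry the same name, SlDof-8. Which identifier SlDof1 has is not in the labels either, so silencing of the target was not checked and the libraries are called RNAi-labelled.

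Flavonoids are made from phenylalanine. PAL, phenylalanine ammonia-lyase, opens the route; chalcone synthase (CHS) makes naringenin chalcone; chalcone isomerase (CHI) closes the ring; F3H and F3'H add hydroxyl groups; and flavonol synthase (FLS) makes flavonols, while DFR leads toward anthocyanins. In tomato the yellow naringenin chalcone collects in the fruit skin during ripening, and MYB12 is the MYB transcription factor that turns the pathway on there; fruits without it have a colourless skin and look pink.

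Of the 9 genes, a chalcone synthase gene showed the largest difference between RNAi-labelled and wild-type fruit. *CHS2* fell 2.87-fold, whereas *CHS1*, the more abundant of the pair, did not pass the test. *MYB12* rose 1.61-fold and *PAL5* 1.23-fold, both close to the threshold. The isomerase *CHI1*, the hydroxylases *F3H* and *F3'H* and the flavonol synthase *FLS* did not pass, and *DFR* was at the limit of detection in both groups. The test was edgeR's quasi-likelihood test on rounded expected counts, with p-values adjusted over all 16737 tested genes and a threshold of 0.05. Among the 8 pathway genes tested, 2 rose, 1 fell and 5 did not pass. Over all tested genes 12.3% were called, 6.54% higher and 5.8% lower. The median log2 fold change (RNAi-labelled over wild type) was 0.24 for these 8 genes and -0.01 for all tested genes. As tissue was sequenced in bulk, fewer cells of a type and less RNA per cell cannot be told apart.

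**Figure D1:**
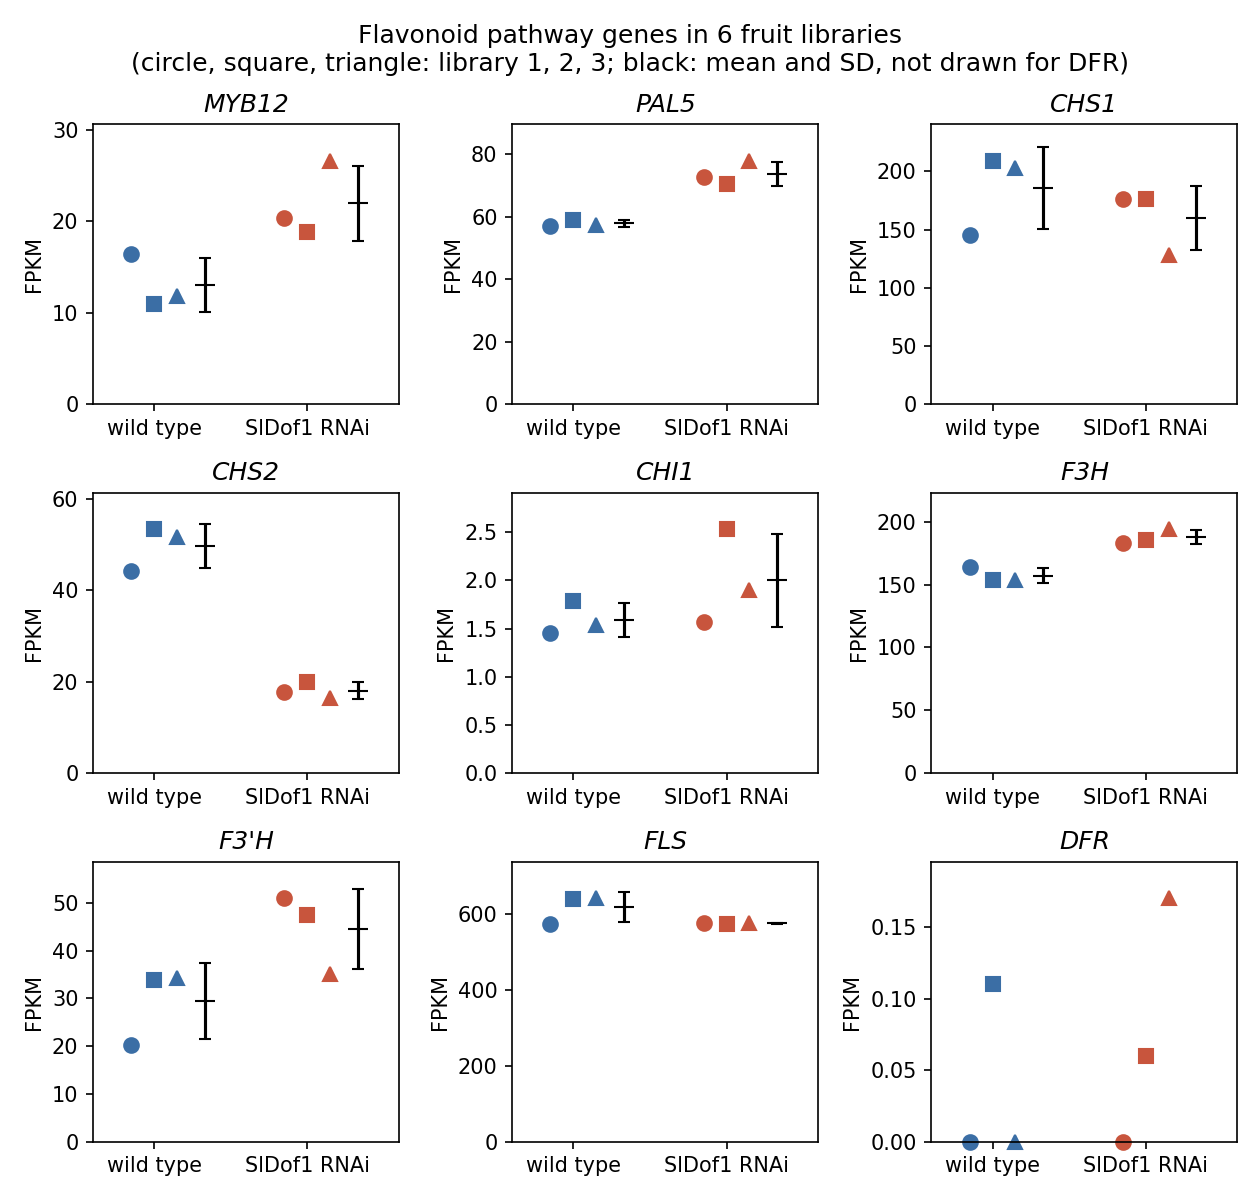
FPKM, fragments relative to library total and transcript length, of each gene in the 6 libraries, on linear axes from 0. Points are libraries, and black marks are the mean and SD of 3 libraries (left out for *DFR*, which is at 0 to 0.17 FPKM). *CHS2* lies at 44.3 to 53.2 in wild type and 16.3 to 19.96 in RNAi-labelled fruit, while the *CHS1*, *CHI1*, *FLS* and *DFR* values of the groups overlap.

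Total expected counts were 9608643 to 10002358 per library. The markers of ripening fruit were abundant, but most were lower in RNAi-labelled fruit. *ACO1*, which makes ethylene, did not pass the test. It was at 11472 ± 1439 FPKM (SD, n = 3) in wild type and 9873 ± 969 in RNAi-labelled fruit. The other 4 of the 5 fell. The polygalacturonase gene *PG2* fell the most, from 1244 ± 348 to 165 ± 44.1 FPKM (edgeR adjusted p = 0.000204). Wild-type library 1 and RNAi-labelled library 3 stand apart from the other 4 on the second principal component (30.4% of the variance), and several flavonoid genes move with that split, as described below.

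*MYB12* (Solyc01g079620.2) was at 16.5, 10.98 and 11.8 FPKM in wild-type libraries 1 to 3 and at 20.4, 18.9 and 26.6 FPKM in RNAi-labelled libraries 1 to 3. All RNAi-labelled libraries were above all wild-type ones. The log2 fold change was 0.69 ± 0.19 (SE; edgeR adjusted p = 0.0476). In the edgeR fits that leave out 1 library, *MYB12* passed only without wild-type library 1 (adjusted p = 0.0111) and otherwise had adjusted p of 0.0757 to 0.168. With a block for the replicate number it missed the threshold (edgeR adjusted p = 0.0951), as it did with limma on log2(FPKM + 1), with an adjusted p of 0.054. Replicate numbers did not pair the libraries, as given in the last section, which limits the blocked fits here and below. Of the 9 alternatives other than leaving out 1 library, those fits included, 5 called *MYB12* higher. These 5 include both fits built on the split, which was found in these same libraries, so they can call too many.

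*PAL5* (Solyc09g007910.2), at the entry of the pathway, was at 57.2, 59.2 and 57.5 FPKM in wild type and 72.7, 70.5 and 78.0 FPKM in RNAi-labelled fruit. The groups did not overlap, and the 3 wild-type values were close together. Its log2 fold change was 0.29 ± 0.08 (SE; edgeR adjusted p = 0.041). It passed in none of the 6 edgeR fits that leave out 1 library (adjusted p of 0.0823 to 0.145), nor in the fit blocked by replicate number (adjusted p = 0.264). Of the 9 alternatives other than leaving out 1 library, that blocked fit included, 7 called *PAL5* higher. Both fits built on the split are again among those 7. The value is uncertain for another reason: the listed transcript model of 7405 bases is longer than the whole RefSeq gene named *PAL5*, and its expected count was not whole in any of the 6 libraries, which is what sharing of reads with other genes gives. The neighbouring identifiers Solyc09g007900.2 and Solyc09g007920.2, listed beside it as PAL genes from memory, also had fractional counts in all libraries. The 3 identifiers summed to 2135, 2061 and 2101 CPM (counts scaled to library size) in wild type and 2197, 2059 and 2353 in RNAi-labelled fruit. For the sum the groups overlapped, and Solyc09g007910.2 took 19.9% to 21.2% of it in wild type and 24.4% to 25.3% in RNAi-labelled fruit.

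The pair of chalcone synthase genes parted. *CHS2* (Solyc05g053550.2) was at 44.3, 53.2 and 51.5 FPKM in wild-type libraries 1 to 3 and at 17.7, 19.96 and 16.3 FPKM in RNAi-labelled libraries 1 to 3. The lowest wild-type value was far above the highest RNAi-labelled one. The log2 fold change was -1.52 ± 0.12 (SE; edgeR adjusted p = 0.000179), the size of which ranked 114 among the 971 genes called lower. Every alternative run, each omitted library included, called *CHS2* lower, with log2 fold changes of -1.61 to -1.42.

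*CHS1* (Solyc09g091510.2) was at 145, 209 and 203 FPKM in wild type and at 176, 176 and 129 FPKM in RNAi-labelled fruit. The groups overlapped, with the lowest value of each in one of the libraries that stand apart. Its log2 fold change was -0.27 ± 0.17 (SE; edgeR adjusted p = 0.398). In the 4 libraries without that pair *CHS1* was called lower at about the same size (log2 fold change -0.27, edgeR adjusted p = 0.00693).

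*CHS2* made up 23.3%, 20.3% and 20.2% of the summed *CHS1* and *CHS2* FPKM in wild-type libraries 1 to 3. The share was 9.12%, 10.2% and 11.3% in RNAi-labelled libraries 1 to 3. The CHS1-to-CHS2 ratio of FPKM thus went from 3.72 ± 0.376 to 8.89 ± 1.04 (SD, n = 3), with no overlap. On the log2(FPKM + 1) scale the ratio was 1.21 higher in RNAi-labelled fruit (exact two-sided permutation test over libraries, p = 0.1, the smallest that 3 against 3 can give). The sum of both genes was 236 ± 40 FPKM in wild type and 178 ± 29 FPKM in RNAi-labelled fruit (exact two-sided permutation test, n = 3 and 3, p = 0.3). The groups overlapped, since wild-type library 1 at 190 FPKM lay below RNAi-labelled libraries 1 and 2 at 194 and 196 FPKM. Wild-type libraries 2 and 3 were at 263 and 255 FPKM and RNAi-labelled library 3 at 145 FPKM. The expected counts of both genes were whole within 0.005 in all 6 libraries, so the counts show no sharing of reads between these related genes. The listed *CHS2* model of 1861 bases is longer than the RefSeq gene of that name, and the level, the share and the ratio scale with that length, but the same length holds in every library and the log2 ratio on counts differed by 1.25.

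**Figure D2:**
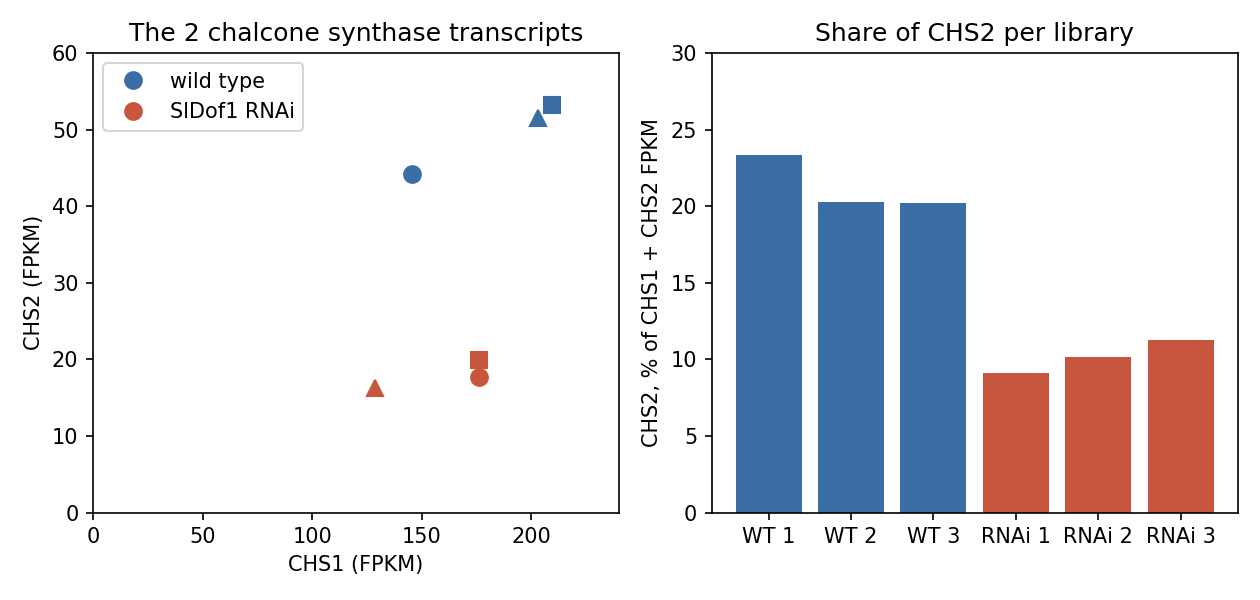
Left, *CHS2* against *CHS1* in FPKM, 1 point per library (circle, square and triangle for libraries 1, 2 and 3). Right, *CHS2* as a percentage of the summed FPKM of both genes, 1 bar per library. Along *CHS1* the groups overlap, along *CHS2* they do not, and the share is 20.2% to 23.3% in wild type and 9.12% to 11.3% in RNAi-labelled fruit.

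*CHI1* (Solyc05g010320.2), the next step, was the least abundant enzyme gene apart from *DFR*. It was at 1.45, 1.79 and 1.54 FPKM in wild type and 1.57, 2.53 and 1.90 FPKM in RNAi-labelled fruit, from 13 to 23 counts per library. The groups overlapped (log2 fold change 0.27 ± 0.28 SE, edgeR adjusted p = 0.612). At this depth a change of that size was not detectable. A low chalcone isomerase level in tomato fruit skin is a known trait that goes with the accumulation of naringenin chalcone.

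*F3H* (Solyc02g083860.2), which hydroxylates flavanones, was at 164, 154 and 153 FPKM in wild type and 183, 186 and 194 FPKM in RNAi-labelled fruit. The groups did not overlap, but the difference was small and did not pass (log2 fold change 0.20 ± 0.08 SE, edgeR adjusted p = 0.137). *F3'H* (Solyc03g115220.2), which adds a hydroxyl group to the B ring, was at 20.3, 33.8 and 34.3 FPKM in wild type and 50.9, 47.4 and 35.1 FPKM in RNAi-labelled fruit. The groups came within 1 FPKM of each other without overlap, and the library that stands apart was the lowest of each. The log2 fold change of *F3'H* was 0.54 ± 0.22 (SE; edgeR adjusted p = 0.168).

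*FLS* (Solyc11g013110.1), the flavonol synthase gene, had the highest level of the set in both groups. It was at 571, 639 and 640 FPKM in wild type and at 575, 572 and 576 FPKM in RNAi-labelled fruit. The groups overlapped through wild-type library 1, and the RNAi-labelled values were nearly equal. The log2 fold change was -0.16 ± 0.08 (SE; edgeR adjusted p = 0.279). *DFR* (Solyc02g085020.2), the first enzyme of the anthocyanin branch, had 0, 2 and 0 counts in wild type and 0, 1 and 3 counts in RNAi-labelled fruit and was too low to be tested. A count of 0 allows up to 3 counts, or 0.17 FPKM, counting error only. Both groups lay at or under that floor.

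Ordered by mean FPKM, a level scaled by transcript length, the wild-type genes ran *FLS*, *CHS1*, *F3H*, *PAL5*, *CHS2*, *F3'H*, *MYB12*, *CHI1* and *DFR*. In both groups the places of *PAL5* and *CHS2* are uncertain. Their listed models, of 7405 and 1861 bases, are longer than the RefSeq genes of those names, and a shorter length would raise their FPKM. Of neighbours in that order, the ranges of *CHS1* and *F3H* overlapped and the other neighbours' ranges did not. In RNAi-labelled fruit *F3H* stood above *CHS1*, and *CHS2* moved down behind *F3'H* and *MYB12*. There the ranges of *MYB12* (18.9 to 26.6 FPKM) and *CHS2* (16.3 to 19.96 FPKM) overlapped, while no other neighbours did.

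In 5 of the 8 tested genes of the set (*MYB12*, *PAL5*, *CHS2*, *F3H* and *F3'H*) wild-type and RNAi-labelled FPKM had no overlap. The groups overlapped for *DFR*, which was not tested. Among all tested genes 31.0% had no overlap.

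The libraries that stand apart split some of these genes along a second line. Wild-type library 1 was above the mean of wild-type libraries 2 and 3 by 0.50 for *MYB12* and below it by 0.50 for *CHS1* (log2(FPKM + 1) difference -0.50). RNAi-labelled library 3 differed from RNAi-labelled libraries 1 and 2 in the same directions, by 0.42 for *MYB12* and -0.45 for *CHS1*. For *F3'H* these differences were -0.72 and -0.47, and for *CHS2* -0.24 and -0.19. Of the 5 ripening markers described below, 3 shifted with the split by over 0.1 in both groups, by 0.62 and 0.44 for *RIN*, a MADS-box regulator of ripening, by 0.66 and 0.63 for the polygalacturonase gene *PG2*, and by 0.30 and 0.23 for *ACO1*, while *PSY1* gave 0.11 and 0.01. Their part in the flavonoid differences was not tested. Comparing like with like, RNAi-labelled library 3 minus wild-type library 1 gave -1.39 for *CHS2*, and RNAi-labelled libraries 1 and 2 minus wild-type libraries 2 and 3 gave -1.43. The same contrasts were 0.66 and 0.73 for *MYB12*, 0.76 and 0.52 for *F3'H*, 0.24 and 0.26 for *F3H*, and 0.44 and 0.29 for *PAL5*. For *CHS1* they were -0.18 and -0.23, and *FLS* gave 0.01 and -0.16. In the 4 libraries without the pair, edgeR called *CHS2*, *CHS1* and *FLS* lower and *MYB12*, *PAL5*, *F3H* and *F3'H* higher, where 10.5% of all tested genes were called lower and 11.4% higher. The split was found in these same libraries, so those calls can be too many.

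**Figure D3:**
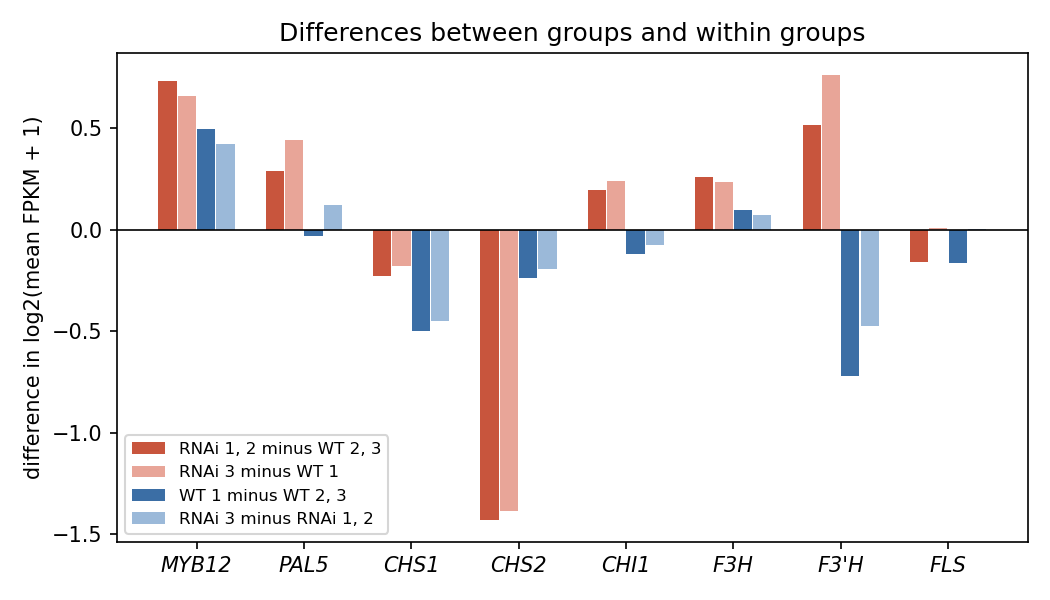
Differences in log2(mean FPKM + 1) for the 8 tested genes. Red bars compare RNAi-labelled with wild-type fruit, in the 4 libraries that lie together and in the 2 that stand apart; blue bars compare the library that stands apart with the others of its own group. For *CHS2* the red bars (-1.43 and -1.39) are far longer than the blue ones (-0.24 and -0.19), while for *CHS1* the blue bars (-0.50 and -0.45) are the longer ones.

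A wider list of 35 identifiers for the phenylpropanoid and flavonoid route and its regulators was examined beside these genes. No file listed 3 of them, and 22 had enough counts to be tested. Of those, 3 rose, 3 fell and 16 did not pass (edgeR), with a median log2 fold change of -0.02 and 11 whose groups did not overlap. Over all tested genes 6.54% rose, 5.8% fell and 31.0% had no overlap. The largest change was at Solyc05g047530.2, for which the RefSeq table gives no name. It fell 5.19-fold (edgeR adjusted p = 9.51e-06), with 77.4 ± 3.14 FPKM in wild type and 15.5 ± 0.464 FPKM in RNAi-labelled fruit (SD, n = 3).

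*PAL2* (Solyc05g056170.2), another phenylalanine ammonia-lyase gene, rose at a low level (edgeR adjusted p = 0.00489), with 0.84 ± 0.19 FPKM in wild type and 2.33 ± 0.335 FPKM in RNAi-labelled fruit (SD, n = 3). The other rises were at Solyc12g042460.1, from 0.763 ± 0.0702 to 2.16 ± 0.519 FPKM (edgeR adjusted p = 0.00889), and Solyc09g059170.1, from 18.3 ± 1.26 to 31.1 ± 3.09 FPKM (edgeR adjusted p = 0.00765). Blocking by replicate number left Solyc09g059170.1 short of the threshold (edgeR adjusted p = 0.055).

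The other falls, *HY5* and *COP1*, were at genes listed as light regulators. The rest of that group did not pass: *DDB1* (edgeR adjusted p = 0.0538), *DET1* (edgeR adjusted p = 0.737) and Solyc05g018620.2 (edgeR adjusted p = 0.548). *HY5* (Solyc08g061130.2), a bZIP factor that promotes light-induced genes, fell (edgeR adjusted p = 0.0246) and was at 50.3 ± 3.84 FPKM in wild type and 38.1 ± 3.38 FPKM in RNAi-labelled fruit (SD, n = 3). *COP1* (Solyc12g005950.1), a ubiquitin ligase known to direct the breakdown of HY5, fell from 24.6 ± 2.42 to 19.2 ± 1.75 FPKM (edgeR adjusted p = 0.037). Of the fits that leave out 1 library, 1 of 6 called *HY5* and 1 of 6 called *COP1*, in both cases the fit without RNAi-labelled library 3 (highest adjusted p 0.106 and 0.136). Blocked by replicate number, neither passed (edgeR adjusted p = 0.111 for *HY5* and 0.16 for *COP1*).

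Some genes of the anthocyanin branch were low, as *DFR* was. *ANS*, anthocyanidin synthase, was at 0.89 ± 0.28 and 0.913 ± 0.24 FPKM (SD, n = 3; edgeR adjusted p = 0.987). *MYB75*, a MYB activator of anthocyanin synthesis, had at most 0.4 FPKM in any library, and neither *ANT1* nor *F3'5'H* was listed in any file.

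**Figure D4:**
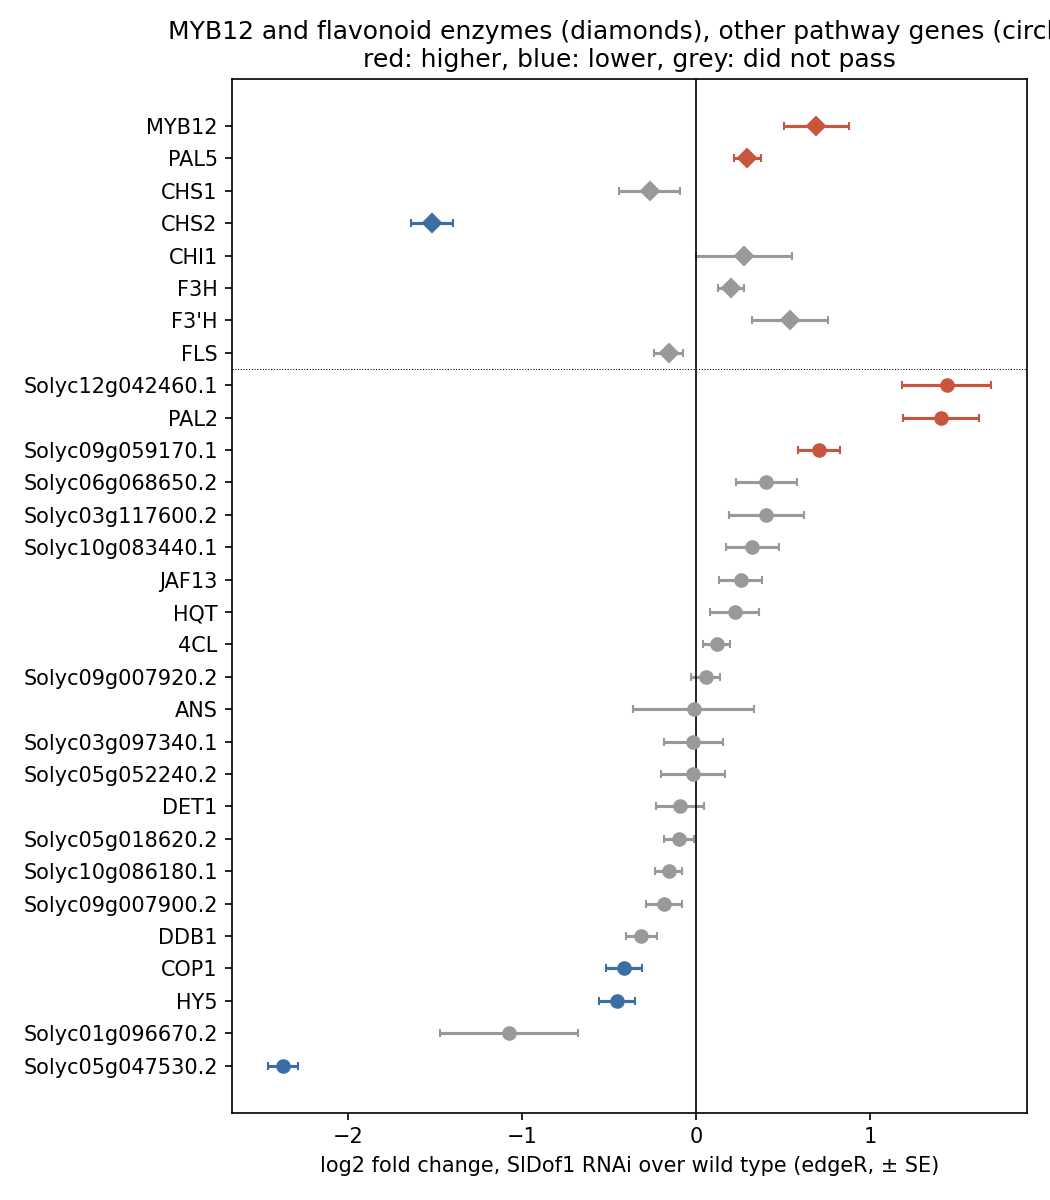
Log2 fold change (RNAi-labelled over wild type, edgeR) with its SE for the 8 tested genes of the set, above the dotted line, and the 22 other tested pathway genes, below it. Red and blue points passed the adjusted p threshold of 0.05 and grey ones did not. *CHS2* at -1.52 is the lowest of the set, and Solyc05g047530.2 at -2.37 is the lowest of all.

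Marker genes were compared between the groups too. Of 5 ripening markers 4 fell and 1, *ACO1*, did not pass, where 5.8% of all tested genes fell. The marker lists were chosen with earlier results of these data known, so setting them against all genes is no independent test. The summed level of all 5, most of it *ACO1*, was 17969 to 21536 FPKM in wild type and 13595 to 15706 in RNAi-labelled fruit. *PSY1*, the first enzyme of carotenoid synthesis in fruit, fell (edgeR adjusted p = 0.000441), with 1369 ± 89.4 FPKM in wild type and 760 ± 2.88 FPKM in RNAi-labelled fruit (SD, n = 3). Naringenin chalcone collects in the skin, so genes of the epidermis and cuticle were listed as well. Of 7 such identifiers 4 were tested, and where 6.54% of all tested genes rose, 2 of these did: *CD2* from 24.0 ± 2.61 to 35.5 ± 0.761 FPKM (edgeR adjusted p = 0.0131) and *GPAT6* from 0.353 ± 0.146 to 1.37 ± 0.236 FPKM (edgeR adjusted p = 0.00835). Neither *CER6* nor an unnamed identifier passed. *CER6* was at 37.5 ± 5.98 and 57.7 ± 11.9 FPKM (edgeR adjusted p = 0.052). *SHN3* was in no file, and *CD1* was listed in 1 library only, at 0.1 FPKM. The summed level of the list was 59.9 to 67.4 FPKM in wild type and 89.2 to 109 in RNAi-labelled fruit. The part that ripening stage or the share of skin in the sample has in the flavonoid differences was not tested.

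The genes with profiles most like that of *MYB12* were sought by the root mean square distance of log2 CPM, centred over the 6 libraries. The nearest of 16736 genes were Solyc07g053230.2 and Solyc04g054260.2, at distances of 0.047 each. Solyc07g053230.2 was at 25.5, 15.9 and 18.3 FPKM in wild type and 29.3, 27.8 and 41.0 FPKM in RNAi-labelled fruit (edgeR adjusted p = 0.0799). Solyc04g054260.2 was at 14.0, 9.46 and 10.5 FPKM in wild type and 16.5, 17 and 23.3 FPKM in RNAi-labelled fruit (edgeR adjusted p = 0.0418). Both were picked for their small distance, so that the enzyme genes lie farther away is no result. The ranks of the enzyme genes were spread widely. *PAL5* ranked 1833, *F3H* 2129, *CHI1* 6799, *FLS* 10342, *F3'H* 11485, *CHS1* 14849 and *CHS2* 16571. By this measure *CHS2* was among the genes least like *MYB12* in these 6 libraries. The distance takes in the difference between the groups, so the ranks in part restate the fold changes given above.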

How the data were processed

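RNA was extracted from frozen pericarp with SDS and phenol, per the labels' protocols. The authors deposited an expected count and an FPKM value per gene and library, per the file headers. Expected counts share reads that match several genes, and FPKM is the authors' scaling by transcript length and library total. The sources used here do not give the aligner, counting program, strand or genome build. Genes that a file does not list got the value 0 there.

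Expected counts were rounded, filtered with filterByExpr at its minimum count of 10 and minimum total of 15, scaled by TMM and fitted with group as the only term (edgeR 4.0.16, R 4.3.3), with Benjamini-Hochberg adjustment. An SE is the absolute log2 fold change over the square root of F. DESeq2 1.42.0 and limma 3.58.1 were alternatives, and the edgeR fit was tested on simulated data. The labels do not say whether libraries come from separate plants, so p-values measure only the spread between these samples.

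Genes, lists and tests were chosen with earlier results of these data known. All 9 pathway genes are named whatever their test, and other pathway genes if called at a mean of 1 FPKM or more. Anthocyanin genes, the light regulators that did not pass, markers and the neighbours of *PAL5* were singled out with their values in view. The files hold no gene names. Remembered names were compared with the RefSeq table of assembly SLM_r2.1, which holds no Solyc identifiers. For all of the 9 but *FLS*, the RefSeq gene of that name lies on the chromosome the identifier gives, in matching order. The same chromosome was found for 22 of the 47 other identifiers, and only those are named.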

Additional observations from a re-analysis of the deposited data

How the results depend on the processing

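The fall of *CHS2* passed in all 15 alternatives. The difference in log2 CHS1-to-CHS2 ratio, 1.21, was 1.25 on counts, 1.25 with a pseudocount of 0.1, 1.21 in the 4 libraries without the pair that stands apart, and 1.12 to 1.29 with 1 library left out. Of the set, 1 gene fell and 2 rose. In the 4 libraries, and with a term for the pair, 3 fell and 4 rose. Only 1 rose without a filter on low counts, and 1 with limma on log2(FPKM + 1), filtered or not, or on log2(FPKM + 0.1). With the replicate block 0 rose by edgeR (2 at an unadjusted p under 0.05), and with 1 library left out 0 to 1 rose (2 to 3 at an unadjusted p under 0.05); DESeq2 called 2 higher. Of the other pathway genes 3 fell: 1 with limma on log2(FPKM + 0.1), 1 with limma unfiltered and 1 with the replicate block, but 6 in the 4 libraries and 7 with the term, and 1 to 3 with 1 library left out. Their 3 rises were 7 with the term. Over all genes 2065 were called, 877 with the replicate block, 3693 in the 4 libraries, 5384 with the term and 1108 to 2038 with 1 library left out.

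Replicate numbers did not pair the libraries: deviations from the group means correlated by -0.49, 0.28 and -0.52 for numbers 1, 2 and 3, and the paired difference of the CHS ratio was 1.21 (exact sign-flip permutation p = 0.25, the smallest 3 pairs can give). Over 14 named genes and their alternatives, 166 of 210 results kept direction and side of the threshold, 36 no longer passed, 8 passed only in the alternative and 0 changed sign; the causes were not tested. Depth limits *CHI1* and *DFR*.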
